A study of Mus musculus with 4 samples.

Results

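The genes described here are 10 genes of iron homeostasis: the hormone hepcidin (Hamp), the iron sensors Hfe and Tfr2, the BMP ligand Bmp6 and the BMP targets Id1 and Smad7, the transferrin receptor Tfrc, the iron exporter ferroportin (Slc40a1) and the ferritin subunits Ftl1 and Fth1. They were taken by symbol from the authors' table, where all 10 had a row of their own among 24138 rows. RNA was sequenced from whole liver of 4 male C57BL/6J mice aged 18 weeks. Every animal had been fed the FAT-MASH diet, a model diet for metabolic dysfunction-associated steatohepatitis (MASH, a fatty liver disease with inflammation and fibrosis), and had been given resolvin D1 (RvD1), a lipid mediator made from docosahexaenoic acid. The 4 livers form 1 group and are called livers 1 to 4 after the numbers in their labels. No livers without the diet or without RvD1 were analysed here, so the values show levels and the spread between animals, and no effect of either. The labels do not say whether animals shared a litter or a cage.

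Hepcidin is a peptide hormone made by hepatocytes that binds ferroportin on the cell surface and causes its degradation, which lowers the release of iron into blood. Its transcription is raised through the BMP and SMAD pathway, for which endothelial cells of the liver sinusoids supply Bmp6 and in which Hfe and Tfr2 take part as sensors of transferrin-bound iron, and through STAT3 downstream of interleukin 6. Inside cells, iron regulatory proteins bind hairpins in mRNA called iron-responsive elements. When iron is scarce this binding blocks the translation of ferritin and ferroportin and protects Tfrc mRNA from decay.

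The iron-responsive elements are shown first, because they mark the members whose mRNA iron regulatory proteins can bind. The pattern searched on the sense strand was a bulged C, then 5 letters, the 6-letter loop CAGTGN and 5 more letters, where the 5 letters on each side of the loop had to pair (G with T allowed). It was found in 4 of the 10 members, 7 times in all, against 1.34% of 21877 genes with a protein-coding transcript in GENCODE vM21. Elements that depart from this pattern would be missed, so the matches need not be all elements of a gene. The capitals mark the loop, and sequences are given 5′ to 3′ as DNA letters of the transcript.
Ftl1, 5′ UTR, exon 1, chr7:45459778-45459807, minus strand: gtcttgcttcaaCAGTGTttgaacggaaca
Fth1, 5′ UTR, exon 1, chr19:9982732-9982761, plus strand: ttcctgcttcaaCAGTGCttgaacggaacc
Slc40a1, 5′ UTR, exon 1, chr1:45925464-45925493, minus strand: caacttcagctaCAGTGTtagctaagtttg
Tfrc, the first element, 3′ UTR, exon 19, chr16:32631219-32631248, plus strand: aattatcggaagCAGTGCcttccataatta
Tfrc, the second element, 3′ UTR, exon 19, chr16:32631598-32631627, plus strand: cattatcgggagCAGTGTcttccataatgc
Tfrc, the third element, 3′ UTR, exon 19, chr16:32631663-32631692, plus strand: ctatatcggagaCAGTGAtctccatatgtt
Tfrc, the fourth element, 3′ UTR, exon 19, chr16:32631710-32631739, plus strand: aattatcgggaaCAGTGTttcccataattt
The elements of the ferritin subunits were identical at 26 of 30 positions without a gap. Coordinates are those of GRCm38, the assembly also called mm10. An mRNA level does not show translation, so the 5′ elements bear on a step that was not measured.

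The promoters of Hamp and of Hamp2, its neighbouring paralogue, were searched for motifs because both genes were highest in liver 3. So were 26.8% of all expressed genes, as defined below. The stretches run from -150 to -51 relative to the RefSeq start site (GRCm38.p6), and the capitals mark the letters GGCGCC, a BMP response element, and TTCNNNGAA, a STAT element. Each motif reads the same on both strands, and the 2 do not overlap.
Hamp, chr7:30944080-30944179, minus strand: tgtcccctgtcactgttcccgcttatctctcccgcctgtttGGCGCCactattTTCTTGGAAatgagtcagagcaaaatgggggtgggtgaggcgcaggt
Hamp2, chr7:30924232-30924331, minus strand: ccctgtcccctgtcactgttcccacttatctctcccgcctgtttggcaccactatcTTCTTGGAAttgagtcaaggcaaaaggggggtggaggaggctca
In Hamp the BMP element lay at -109 to -104 and the STAT element at -97 to -89. The 250 bases before the start sites were 89.7% identical between the genes, and in the alignment Hamp2 carried the substitution G145A inside the BMP element, counted from 1 at the 5′ end of the 250-base Hamp stretch. Of 32851 RefSeq windows of 300 bases, 11.9% held GGCGCC, 8.30% held TTCNNNGAA and 0.645% held both. Among 11 windows of 7 members, GGCGCC was otherwise found in Tfrc at -89 to -84, and TGACNNNGC, the core of the antioxidant response element, in Hfe at -67 to -59 and in Bmp6 at -108 to -100. The latter core was present in 12.4% of all windows. Promoters of Id1, Slc40a1 and Smad7 were not analysed here. A match describes letters and is not evidence that a factor was bound.

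The depth was estimated from the lowest values of single-transcript genes as about 19.9 M in liver 1, 18.9 M in liver 2, 19.3 M in liver 3 and 17.9 M in liver 4 (M, mega). Values are FPKM, fragments per kilobase of transcript and per M mapped fragments, so that levels of different genes can be set side by side. A gene counts as expressed here if its mean over the livers reached 1 FPKM, which held for 10541 genes and all 10 members. Differences between livers are also given on the scale log2(FPKM + 1), where those of genes near 1 FPKM come out too small. In bulk tissue, fewer cells of a type and less RNA per cell cannot be told apart.

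The members spanned from storage proteins among the most abundant transcripts of the liver to a signalling ligand near the limit for expression. Ordered by mean FPKM they were Ftl1, Hamp, Fth1, Tfr2, Slc40a1, Hfe, Id1, Tfrc, Smad7 and Bmp6. The ranges over the 4 livers of neighbours in this order overlapped for Hamp and Fth1, for Slc40a1 and Hfe, and for Tfrc and Smad7, and did not overlap for the other 6 neighbouring pairs. Slc40a1 was nevertheless above Hfe in 4 of 4 livers, whereas Hamp exceeded Fth1 in 2 of 4. The Hamp transcript has 410 bases, and FPKM of so short a transcript depends on the correction for fragment length, which is not given in the sources used here.

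**Figure D1:**
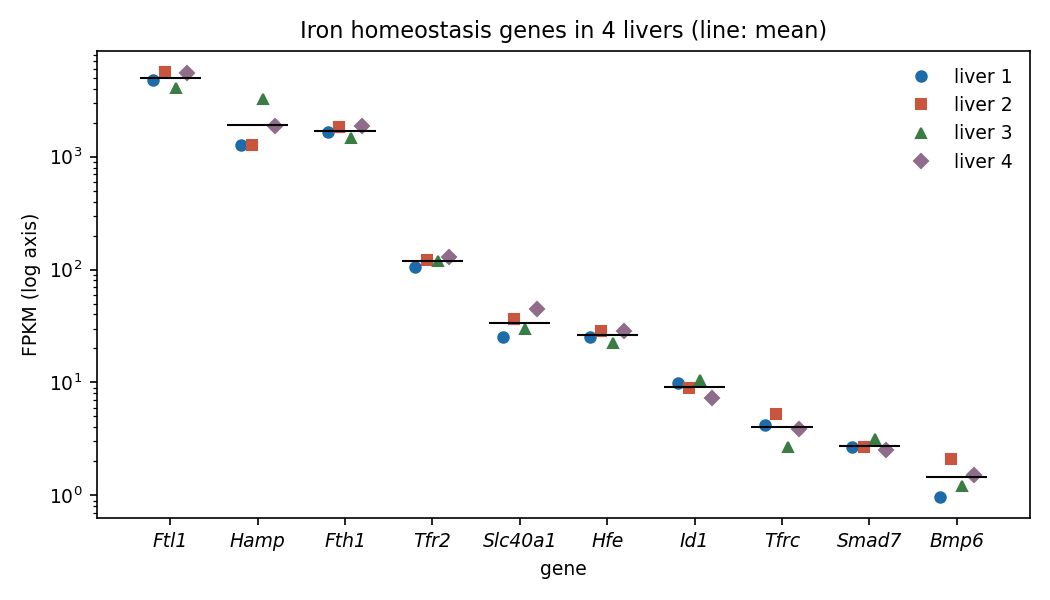
FPKM of the 10 genes in each of the 4 livers on a log axis, ordered by mean, with 1 marker per liver and a line at the mean. Ftl1 lies between 4031 and 5618 FPKM, Bmp6 between 0.975 and 2.08 FPKM, and the 4 values of Hamp are spread more widely than those of the ferritin genes on either side.

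With all 4 livers, hepcidin was the member with the widest spread between animals, a place it lost without liver 3. Hamp (XLOC_019698, chromosome 7, 30942369 to 30944017) stood at 1258, 1276, 3213 and 1869.5 FPKM across livers 1 to 4. Livers 1 and 2 were nearly equal, liver 4 lay above both and liver 3 stood highest, 1.72-fold above liver 4. The mean was 1904 ± 918 FPKM (SD, n = 4) and the highest liver exceeded the lowest 2.55-fold, a ratio reached by 2.55% of expressed genes. Ranked by FPKM among all rows, Hamp was at place 52, 55, 18 and 37 in livers 1 to 4. The SD on the log2 scale was 0.64, and without liver 3 it was 0.32 and the ratio of highest to lowest 1.49. In the same 3 livers Slc40a1 had an SD of 0.39 and a ratio of 1.74, and Bmp6 a ratio of 2.13.

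The paralogue Hamp2 (chromosome 7, 30922372 to 30924181) stood at 228, 279, 415 and 259.5 FPKM across livers 1 to 4. Liver 3 was again the highest, and the mean was 295.5 ± 82.4 FPKM (SD, n = 4). Hamp exceeded it 5.51-fold, 4.57-fold, 7.74-fold and 7.20-fold in livers 1 to 4, so that their ratio itself varied 1.69-fold. The annotated transcripts are 92.4% identical over the alignment, and how reads shared by the 2 genes were divided is not given in the sources used here. Whether reads of one were counted for the other was not tested.

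Haemoglobin transcripts, which come from red blood cells and their precursors, ran in the reverse order of hepcidin. The haemoglobin gene Hba-a1, in the first of its 2 rows, stood at 814, 661, 308 and 535 FPKM across livers 1 to 4, with liver 1 highest and liver 3 lowest. The second row gave 206, 124, 55.3 and 113 FPKM. Alas2, the erythroid enzyme of haem synthesis, was at 55.8, 43.8, 64.0 and 57.0 FPKM and did not follow that order. The sum of these 3 rows had its minimum of 427 FPKM in liver 3 and its maximum of 1076 FPKM in liver 1, and the part of blood in the result for Hamp was not tested.

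The sensors of transferrin-bound iron did not reach a ratio of 1.5 between animals. Tfr2 (chromosome 5, 137569840 to 137588081), the receptor by which hepatocytes sense iron-loaded transferrin, stood at 106, 122, 119 and 130.2 FPKM across livers 1 to 4. Only liver 1 was below 119 FPKM, and the mean was 119 ± 10.2 FPKM (SD, n = 4) with a 1.23-fold ratio of highest to lowest, where 73.1% of expressed genes had a ratio at least as large. Hfe (chromosome 13, 23703841 to 23710811), an MHC class I-like protein that binds transferrin receptors, was listed at 25.3, 28.4, 22.4 and 28.4 FPKM, with the lowest value in liver 3. Its mean was 26.1 ± 2.86 FPKM (SD, n = 4), with a 1.27-fold ratio that 65.6% of expressed genes reached. Tfr2 exceeded Hfe 4.17-fold to 5.31-fold within a liver. The highest liver of both sensors was liver 4 as deposited and became liver 2 when each library was scaled to the same sum.

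The BMP ligand and the BMP targets did not share the order of hepcidin. Bmp6 (chromosome 13, 38345716 to 38499728) stood at 0.975, 2.08, 1.21 and 1.52 FPKM across livers 1 to 4, with a mean of 1.44 ± 0.478 FPKM (SD, n = 4). It was highest in liver 2 and lowest in liver 1, a 2.13-fold ratio. These values correspond to about 65.8 to 133 fragments per library, where the longest annotated transcript is taken as the length. The span of the row also contains that of 4930579J19Rik.

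Id1 (chromosome 2, 152736251 to 152737410), an inhibitor of basic helix-loop-helix factors induced by BMP signalling, stood at 9.85, 8.95, 10.5 and 7.29 FPKM across livers 1 to 4. It was highest in liver 3, close to liver 1, and lowest in liver 4, and its mean was 9.14 ± 1.38 FPKM (SD, n = 4). Smad7 (chromosome 18, 75367365 to 75395934), an inhibitory SMAD that restrains the pathway, was listed at 2.66, 2.699, 3.14 and 2.52 FPKM, with a mean of 2.76 ± 0.268 FPKM (SD, n = 4). Both targets and Hamp were thus highest in liver 3, as were 26.8% of all expressed genes. The size of the difference was unlike: liver 3 exceeded the next liver 1.06-fold for Id1, 1.16-fold for Smad7 and 1.72-fold for Hamp, and the number of Hamp FPKM per Id1 FPKM ranged from 128 in liver 1 to 307 in liver 3.

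**Figure D2:**
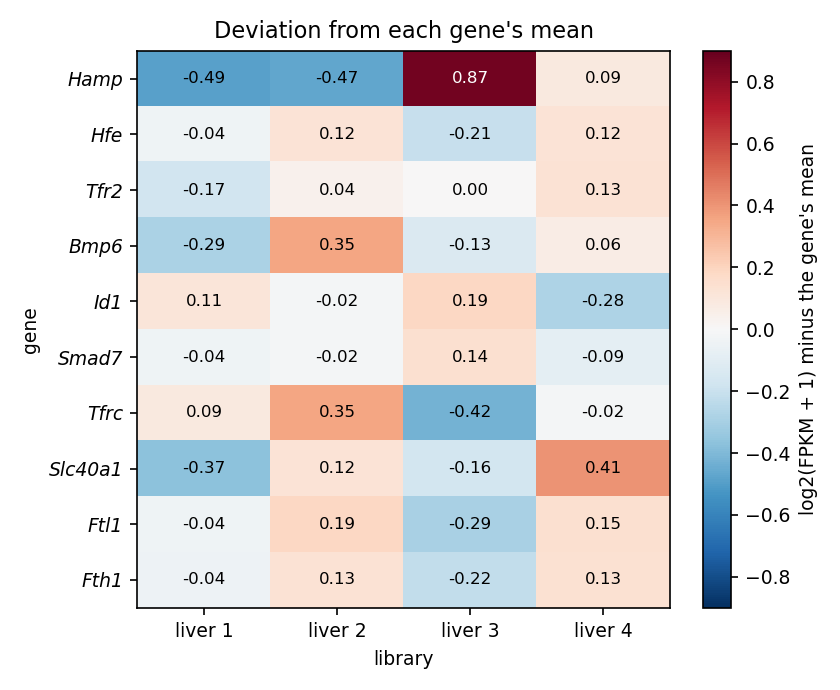
Deviation of log2(FPKM + 1) in each liver from the mean of the gene over the 4 livers, for the 10 genes (rows) and 4 livers (columns). In liver 3 Hamp deviates by 0.87, while Tfrc deviates by -0.42, Ftl1 by -0.29 and Fth1 by -0.22.

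Among genes of iron uptake, export and storage, Tfrc and the ferritins were lowest in the liver in which hepcidin was highest, liver 3, which was the lowest for 31.4% of expressed genes. Tfrc (chromosome 16, 32608896 to 32632794), the receptor that takes up transferrin-bound iron and the carrier of the 4 elements in the 3′ UTR shown above, stood at 4.22, 5.28, 2.67 and 3.85 FPKM across livers 1 to 4. Liver 2 was highest and liver 3 lowest, a 1.98-fold ratio that was 1.37 without liver 3, and the mean was 4.00 ± 1.08 FPKM (SD, n = 4). The ratio of Hamp to Tfrc was 298, 242, 1205 and 486 in livers 1 to 4. Tfr2 exceeded Tfrc 25.1-fold, 23.2-fold, 44.6-fold and 33.8-fold.

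Ferritin heavy and light chains assemble into the shell that stores iron. Ftl1 (chromosome 7, 45457944 to 45459886) stood at 4804, 5618, 4031 and 5472 FPKM across livers 1 to 4, and held place 10, 7, 15 and 10 among all rows. Fth1 (chromosome 19, 9980600 to 9985111), the subunit with ferroxidase activity, was listed at 1635, 1844, 1447 and 1852 FPKM. Both were lowest in liver 3 and both were high in livers 2 and 4, although the highest liver of Fth1 was liver 4 as deposited and liver 2 under either other scaling. The means were 4981 ± 726 FPKM for Ftl1 and 1695 ± 193 FPKM for Fth1 (SD, n = 4). The ratio of Ftl1 to Fth1 was 2.94, 3.05, 2.79 and 2.96, which is 2.93 ± 0.108 (SD, n = 4). It varied 1.09-fold between animals, less than the 1.39-fold of Ftl1 and the 1.28-fold of Fth1 themselves. Ferritin genes have processed copies in the genome, and the handling of reads shared with them is not given in the sources used here.

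Ferroportin followed neither pattern. Slc40a1 (chromosome 1, 45908070 to 45925594), the only known cellular exporter of iron and the target of hepcidin, stood at 25.5, 36.2, 29.5 and 44.3 FPKM across livers 1 to 4. It was highest in liver 4 and lowest in liver 1, a 1.74-fold ratio, and its mean was 33.9 ± 8.23 FPKM (SD, n = 4). Macrophages recycling haem iron are a main site of ferroportin, and summed markers of Kupffer cells, the macrophages of the liver, were 54.9, 72.7, 48.8 and 83.6 FPKM. Livers 4 and 2 were thus the highest for both, while the lowest was liver 1 for Slc40a1 and liver 3 for the markers. Of the 6 markers 4 were expressed, all 4 of these were lowest in liver 3, as were 31.4% of expressed genes, and Timd4 lay between 0.0450 and 0.297 FPKM. Their part in the result for Slc40a1 was not tested. Summed markers of sinusoidal endothelial cells, the main source of Bmp6, were 59.4, 77.3, 65.7 and 74.1 FPKM. All 7 were expressed, and liver 2 was highest and liver 1 lowest both for their sum and for Bmp6. Singly, 6 were highest in liver 2, as were 22% of expressed genes, and Clec4g in liver 4. In liver 1 5 were lowest, as were 20.7% of expressed genes, and in liver 3 2 were lowest. The part of these markers in the result for Bmp6 was not tested.

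The spread of the 10 genes is given beside that of all expressed genes, and the difference was not tested. The highest liver was at least 1.5 times the lowest for 4 of 10 members (Hamp, Bmp6, Tfrc and Slc40a1) and for 28.4% of all expressed genes. A ratio of at least 2 was found for 2 of 10 members (Hamp and Bmp6) and for 6.54% of expressed genes. Each of these calls was lost without a single liver: the ratio of Bmp6 was 1.73 without liver 1 and 1.56 without liver 2, and that of Hamp 1.49 without liver 3. Id1 was just below the first limit at 1.43 and passed it under both other scalings, at 1.502 and 1.58. Without liver 3 only 2 members remained above it, Bmp6 and Slc40a1. The median SD of log2(FPKM + 1) was 0.21 for the members, or 0.17 without liver 3, and 0.16 for all expressed genes in the 4 livers. Dixon's ratio, the gap of the most extreme liver to its neighbour over the whole range, passed the 95% critical value for 4 samples in 0 of 10 members and in 5.46% of expressed genes. The members were highest in liver 4 in 4 cases, in liver 3 in 3, in liver 2 in 3 and in liver 1 in 0, against 33.3%, 26.8%, 22% and 17.9% of expressed genes. This order depends on the scaling: with the libraries scaled to the same sum, 1 member was highest in liver 4, 3 in liver 3 and 6 in liver 2, against 15.6%, 34.2% and 28.4% of expressed genes. As deposited, they were lowest in liver 1 in 4 cases, in liver 3 in 4, in liver 4 in 2 and in liver 2 in 0, against 20.7%, 31.4%, 18.1% and 29.9% of expressed genes.

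Other genes of the pathway were taken from lists of 81 genes, of which 66 were expressed, 9 were above 0 but under 1 FPKM and 6 were listed at 0. The highest liver was at least 1.5 times the lowest for 28 of the 66, against 28.4% of all expressed genes, and 8 of these 28 were acute phase genes. The median ratio was 1.37 against 1.34 for all expressed genes. The ligands Bmp2 and Bmp4 had 2.81 ± 0.184 and 1.82 ± 0.0805 FPKM (SD, n = 4), and of 5 expressed ligands Bmp5, Bmp7 and Gdf2 reached the ratio of 1.5. In the receptor list 0 of 8 expressed genes reached that ratio. It held haemojuvelin (Hjv), the BMP co-receptor that hepcidin expression requires, at 59.5 ± 7.84 FPKM, and Tmprss6, the protease that opposes hepcidin, at 129.9 ± 10.7 FPKM (each SD, n = 4). The SMAD and target list had 5 of 9 expressed genes at the ratio of 1.5 or above, against 28.4% of all expressed genes, and 4 of 9 were highest in liver 3, against 26.8%. Differences of these shares from all genes were not tested.

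Atoh8, a target of BMP signalling, stood at 8.28, 5.74, 10.5 and 7.97 FPKM across livers 1 to 4, and Smad9 at 1.89, 3.30, 4.54 and 2.97 FPKM. Both were highest in liver 3, as was Id3 at 51.01 FPKM against 36.3 to 49.0 FPKM elsewhere. Id2 and Smad6 did not share this, with Id2 highest in liver 4 at 183 FPKM and Smad6 highest in liver 2 at 6.27 FPKM. Erythroferrone (Erfe), the erythroid suppressor of hepcidin, was at 0.0915, 0.0457, 0.0364 and 0 FPKM, and the BMP antagonists Grem1, Nog and Sostdc1 were listed at 0.

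The arm of interleukin 6 and STAT3 was described through its components, with acute phase genes set beside them. The part of this arm in the level of the acute phase genes was not tested. Il6 was listed at 0 in all 4 livers. Stat3 had 20.8 ± 0.593 FPKM (SD, n = 4), a 1.07-fold ratio, and Il6ra 7.45 ± 0.994 FPKM, while Socs3, a feedback inhibitor induced by STAT3, stood at 1.73, 2.17, 2.59 and 2.87 FPKM across livers 1 to 4. All 10 acute phase genes were highest in liver 2, where Hamp was 1276 FPKM, as were 22% of expressed genes. In liver 3, where Hamp was highest, 9 of 10 were lowest, as were 31.4% of expressed genes. With the libraries scaled to the same sum these were 8 of 10 and 25.3%. Saa1, the serum amyloid gene, was listed at 139, 2135, 45.6 and 131 FPKM. Hamp differed 1.01-fold between livers 1 and 2. The part of this arm in the level of Hamp was not tested. Of the transcription factors in the list, Cebpa, which activates Hamp in hepatocytes, was at 142, 181, 293 and 159.98 FPKM, highest in liver 3, and Cebpb was at 132, 273, 213 and 123 FPKM, highest in liver 2.

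**Figure D3:**
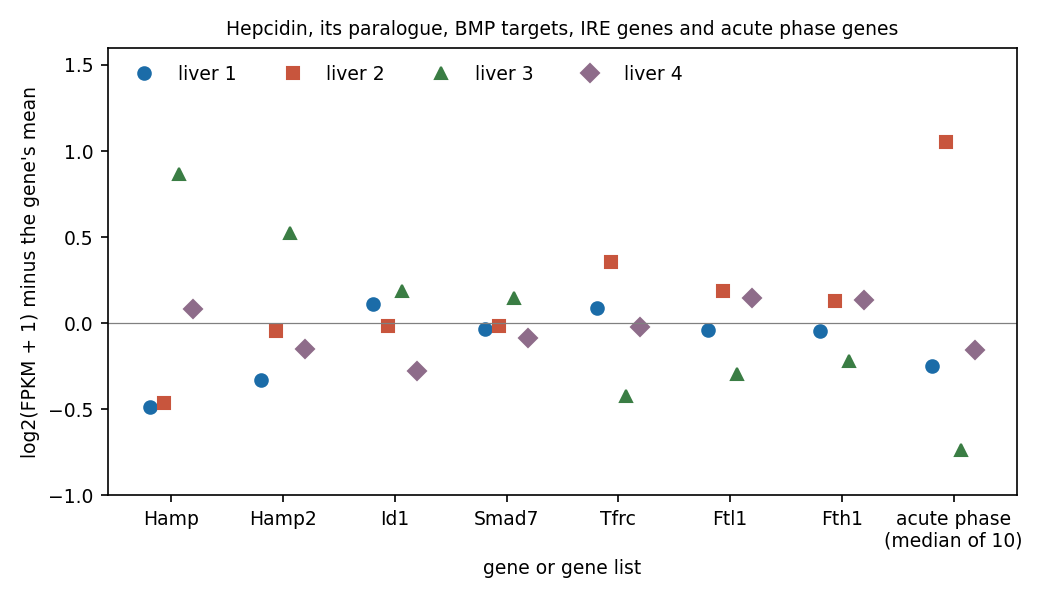
Deviation of log2(FPKM + 1) from the mean over the 4 livers for 7 genes and, at the right, the median deviation of 10 acute phase genes, with 1 marker per liver. Liver 3 is the highest marker for Hamp, Hamp2, Id1 and Smad7 and the lowest for Tfrc, Ftl1, Fth1 and the acute phase genes (median -0.73), whereas liver 2 is at 1.05 for the acute phase genes and at -0.47 for Hamp.

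In the list of iron transport genes other than the members, 4 of 8 expressed genes reached a ratio of 1.5, against 28.4% of all expressed genes. They were Slc39a14, a zinc and iron importer of hepatocytes, at 26.3, 33.9, 41.2 and 34.0 FPKM in livers 1 to 4, Steap3 (8.92 to 15.7 FPKM), Slc39a8 (4.35 to 6.59 FPKM) and ceruloplasmin, the plasma ferroxidase Cp (282 to 463 FPKM). Slc11a2, the importer DMT1, had 7.83 ± 0.484 FPKM (SD, n = 4). Transferrin (Trf) was listed at 0 in all 4 livers. As it is abundant in liver, this can be a failed estimate and gives no level.

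The iron regulatory proteins and their regulator were all expressed. Aco1, which encodes the first of them, had 68.4 ± 6.18 FPKM and Ireb2, which encodes the other, 15.8 ± 1.97 FPKM (each SD, n = 4). Fbxl5, which targets Ireb2 protein for degradation when iron is plentiful, stood at 11.6, 11.4, 8.78 and 14.6 FPKM across livers 1 to 4 and was the only one of 7 expressed genes in this list to reach a ratio of 1.5, against 28.4% of all expressed genes. Ncoa4, the receptor for the autophagy of ferritin, had 19.7 ± 1.09 FPKM (SD, n = 4), a 1.14-fold ratio beside the 1.39-fold ratio of Ftl1. In this list 6 of 7 genes were highest in liver 4, as were 33.3% of expressed genes. With the libraries scaled to the same sum these were 5 of 7 and 15.6%.

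Genes of haem turnover were described because recycled haem is a main source of iron. Alas1, the rate-limiting enzyme of hepatic haem synthesis, stood at 223, 349, 497 and 460.2 FPKM across livers 1 to 4, a 2.23-fold ratio with liver 1 lowest. Hmox1, which releases iron from haem, had 8.50 FPKM in liver 3, while the other livers had 12.1 to 12.5 FPKM. Hemopexin (Hpx), the plasma carrier of haem and an acute phase protein, was at 2474, 4113, 2006 and 3069 FPKM. Of 9 expressed genes 4 (Alas1, Hpx, Blvra and Blvrb) reached the ratio of 1.5, against 28.4% of all expressed genes. Hmox1 was below it at 1.47.

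**Figure D4:**
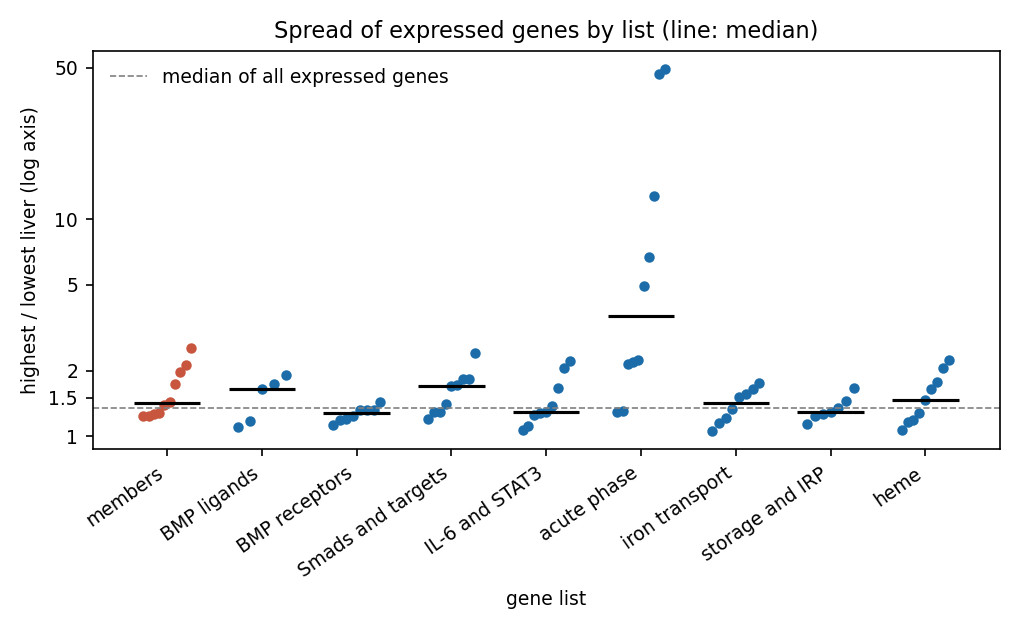
Ratio of the highest to the lowest liver (log axis) for each expressed gene of the members and of 8 lists, with a line at the median of the list and a dashed line at the median of all expressed genes (1.34). The members reach from 1.23 to 2.55, and the acute phase genes reach 49.5.

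The genes whose differences between livers were most like those of Hamp were sought among 6537 genes averaging 5 FPKM or more, as the smallest root mean square distance of log2(FPKM + 1) deviations over the 4 livers. They were Slc22a7, an organic anion transporter (distance 0.05; 11.99, 12.6, 32.9 and 17.2 FPKM in livers 1 to 4), Selenbp2 (0.10), Afmid, the kynurenine formamidase (0.14), Tsku, a secreted protein of the liver (0.16), and Pvrl2 (0.18). All 5 were highest in liver 3, against 26.8% of all expressed genes, but the choice by likeness to Hamp favours such genes. Hamp2 was at place 72, with a distance of 0.30. The other members that reached 5 FPKM lay from 0.53 (Tfr2) to 0.70 (Ftl1), where the median of the genes ranked was 0.56. The choice depends on single livers: of the 5 genes, 2 were again among the nearest 5 without liver 1, 2 without liver 2, 0 without liver 3 and 4 without liver 4. Likeness over 4 samples is a description.

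The labelled tissue was checked with hepatocyte markers, whose sum was 31721, 28623, 27839 and 35983 FPKM in livers 1 to 4, with all 6 expressed. Stellate cell markers summed to between 157 and 250 FPKM and lymphoid markers to between 3.91 and 7.09 FPKM. Between 10392 and 10582 genes had at least 1 FPKM in a library, and at most 1 value above 0 was identical in any pair of libraries.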

How the data were processed

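Poly(A)-enriched RNA libraries of 4 livers were made by a sequencing company, per the labels' protocols. The submitters' processing notes name FastQC 0.10.1, Trim Galore 0.6.3, cutadapt, STAR 2.7.6a and Cufflinks 2.2.1 and the build mm10. The authors' deposited table holds 1 value per gene and library, taken to be FPKM from its values and identifiers, as its header names no unit. Columns were matched to samples by description, with 0 unmatched, and 1 was added to each start. FPKM hold no counts, so no count test was run, and with 1 group no test between groups was possible.

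Values were analysed with Python 3.11.15, numpy 2.4.6 and pandas 2.3.3 as FPKM and log2(FPKM + 1), with SDs over 4 libraries. The spread may be technical in part. Depth was taken as the commonest product of low FPKM and transcript length (over 800 bases, less 200) in single-transcript genes, and is approximate. Sequences came from GENCODE vM21 and RefSeq, and 3 pathway genes were matched by an older symbol. For 3 erythroid markers (Hba-a2, Hbb-bs and Hbb-bt) no row was matched, and 1 other is not reported here. The procedures were tested on simulated data. Members and lists were chosen with earlier results of these data known. Named genes are the members, list genes with a ratio of at least 1.5 or needed beside a member, and the 5 genes most like Hamp. Alternatives were other scalings, pseudocounts and minimum levels, and leaving out each liver.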

Additional observations from a re-analysis of the deposited data

Results flagged for a closer look

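In 4 of 66 expressed pathway genes and 1 of 29 expressed rows of cell type markers, 1 liver stood apart from the other 3 by Dixon's ratio of log2(FPKM + 1), against 5.46% of all expressed genes, so these shares are near or below the background. Chance alone passes about 1 group in 20. Orm1, an acute phase gene, was at 1631 FPKM in liver 2 and between 758 and 812 FPKM elsewhere (ratio 0.911). Bambi, a BMP pseudoreceptor, was at 1.000 FPKM in liver 4 and between 1.63 and 1.71 FPKM elsewhere (0.902). Hmox1 was at 8.50 FPKM in liver 3 and between 12.1 and 12.5 FPKM elsewhere (0.902). Il6st, the signalling receptor of interleukin 6, was at 14.2 FPKM in liver 1 and between 17.5 and 18.1 FPKM elsewhere (0.874). Apoa1, a hepatocyte marker, was at 15343 FPKM in liver 4 and between 11922 and 12320 FPKM elsewhere (0.870). None of the 10 members was among them.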

How the results depend on the processing

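The 10 members stayed at or above 1 FPKM under median-of-ratios scaling, with each library scaled to the same sum and without any single liver (10 to 10), and 7 did at a minimum of 5 FPKM. The number with a ratio of at least 1.5 was 4, became 5 under both scalings, was 2 with a minimum of 5 FPKM because fewer members are counted, and ranged from 2 (without liver 3) to 4 when a liver was left out. Their median SD was 0.21, from 0.17 (without liver 3) to 0.24 (without liver 1). Pseudocounts of 0.1 and 5 gave 0.22 and 0.16. Scaling to the same sum, with the mean level over the livers kept, moved all genes of liver 4 by -0.10 and of liver 3 by 0.04 on the log2 scale relative to the values as deposited. The liver with the lowest value was the same under 3 scalings for all 10 members and the highest for 7 of 10 (all but Hfe, Tfr2 and Fth1). With all livers kept, 94 of 100 values moved by less than the limit for their kind, and with 1 left out 118 of 136. The limit was the SD between livers for means and ratios and the standard error for SDs. For counts of genes it was a factor of 1.5, so that 4 and 5 members passed as the same. Among the rest, the ratio of Tfr2 was 1.09 without liver 1, of Id1 1.17 without liver 4, and of Ftl1 1.17 and Smad7 1.07 without liver 3. Dixon's ratio was not run on 3 livers. No paired analysis was possible because there is 1 group. Bmp6 and Id1 rest on about 65.8 to 133 and 125 to 194 fragments per library, a number that depends on the transcript taken as the length.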
